A study of Mus musculus with 22 samples.

Results

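The comparison set the prefrontal cortex (PFC) of male (XY) DBA/2J mice given adolescent binge ethanol against the PFC of males given water on the same schedule. It was made over every male pool, which is 11 of the 22 bulk RNA-seq pools of the series: 5 water pools and 6 ethanol pools. DBA/2J is an inbred strain, no gene was altered, and the 11 pools shared the gavage itself. Each mouse received 8 doses between postnatal days 29 and 42, on a cycle of 2 days on and 2 days off, either of ethanol at 4 g/kg (25% w/v) or of water, and the PFC was taken 24 h after the last dose. Every pool joined the tissue of 3 mice, so the groups drew on 15 and 18 animals, and every p below measures the spread between pools, not between mice. The labels call the pools biological replicates, and the tissue was a whole dissection holding every cell type of the region.

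The PFC is among the last cortical regions to mature, and its neurons are still being myelinated and their synapses pruned during adolescence. Glucocorticoid hormone, released under stress, enters the brain and switches on a known set of genes there. Cells whose endoplasmic reticulum (ER) is loaded with unfolded protein answer by making more chaperones, the proteins that help others to fold. Brain cells make their own cholesterol, and its synthesis is held in check by a sterol sensor in the ER membrane.

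The libraries held 34092746 to 46519801 reads on genes in the water pools and 30546493 to 39992112 in the ethanol pools. Ethanol pools were shallower, with a difference of -5499040 reads on average (exact two-sided permutation test over 462 splits, p = 0.0887), which was -6671730 reads without water pool 5 (p = 0.0333, exact permutation test) and -6840560 reads without ethanol pool 5 (p = 0.0238, exact permutation test), and -3564970 reads without water pool 1. Mitochondrial transcripts took 7.86 to 9.44% of the reads. Read pairs outside annotated exons made up 15.4 to 16.9% in water and 14.9 to 16.8% in ethanol pools (exact permutation test, p = 0.6). *Slc17a7*, the vesicular glutamate transporter of cortical excitatory neurons, stood at 1638 to 1997 CPM (reads scaled to a library of 1000000) across the pools, and the Y-linked *Ddx3y* at 54.6 to 63.2 CPM. The 12 markers of the neighbouring striatum summed to 372.8 to 442 CPM in water and 359.8 to 431 CPM in ethanol pools. On the leading principal components, which took 12.9, 12.2 and 11.4% of the variance, ethanol pools 2, 6 and 3 in turn lay farthest from the centre, and ethanol pool 4 lay next to pool 6 on the first of them. The counts of genes are given below with and without pools 2, 3 and 6.

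Ethanol and water pools differed modestly. Of 18347 genes tested with edgeR's quasi-likelihood test, 311 passed an unadjusted p of 0.01 (1.7% of those tested), where 183 would pass by chance, and these are called DEGs here. Among them 139 were higher after ethanol (0.758%) and 172 were lower (0.937%). At an adjusted p of 0.05 edgeR's quasi-likelihood test called 0 genes, while 1235 (6.73%) passed an unadjusted 0.05, and on the same counts DESeq2 called 21 genes at that adjusted level, edgeR's likelihood ratio test 18 and limma-voom 1. The adjusted p-values printed beside genes are from edgeR's quasi-likelihood test over the 18347 genes, and they reached 0.589 among the DEGs. Ratios are log2 ratios of ethanol over water with their standard error (SE). The groups did not overlap at all for 130 genes (0.709%), 54 with every ethanol pool above (0.294%) and 76 with every ethanol pool below (0.414%), and 69 DEGs were among them. Over the 462 splits of the pools, each direction would come up by chance for a share of 0.0022 of genes. A separation rests on the same values as the p of that gene and is not further support. The median size of a DEG was 0.23 on the log2 scale, and 24 of the 311 changed by more than 2-fold.

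Depth moved with treatment, and with the library size as a covariate 118 genes passed, 75 of them among the 311. What part of the difference came from depth was not tested. Without ethanol pools 2, 3 and 6 there were 252 DEGs, 134 of them shared. Leaving out 1 pool at a time gave between 223 DEGs (without water pool 1) and 381 (without ethanol pool 3). The number lower after ethanol dropped from 172 to 112 without water pool 4. Of 61 DEGs taken by the naming rule, 31 were called with library size as a covariate and 35 without the 3 pools, and none turned its direction under any of the 22 other settings.

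**Figure D1:**
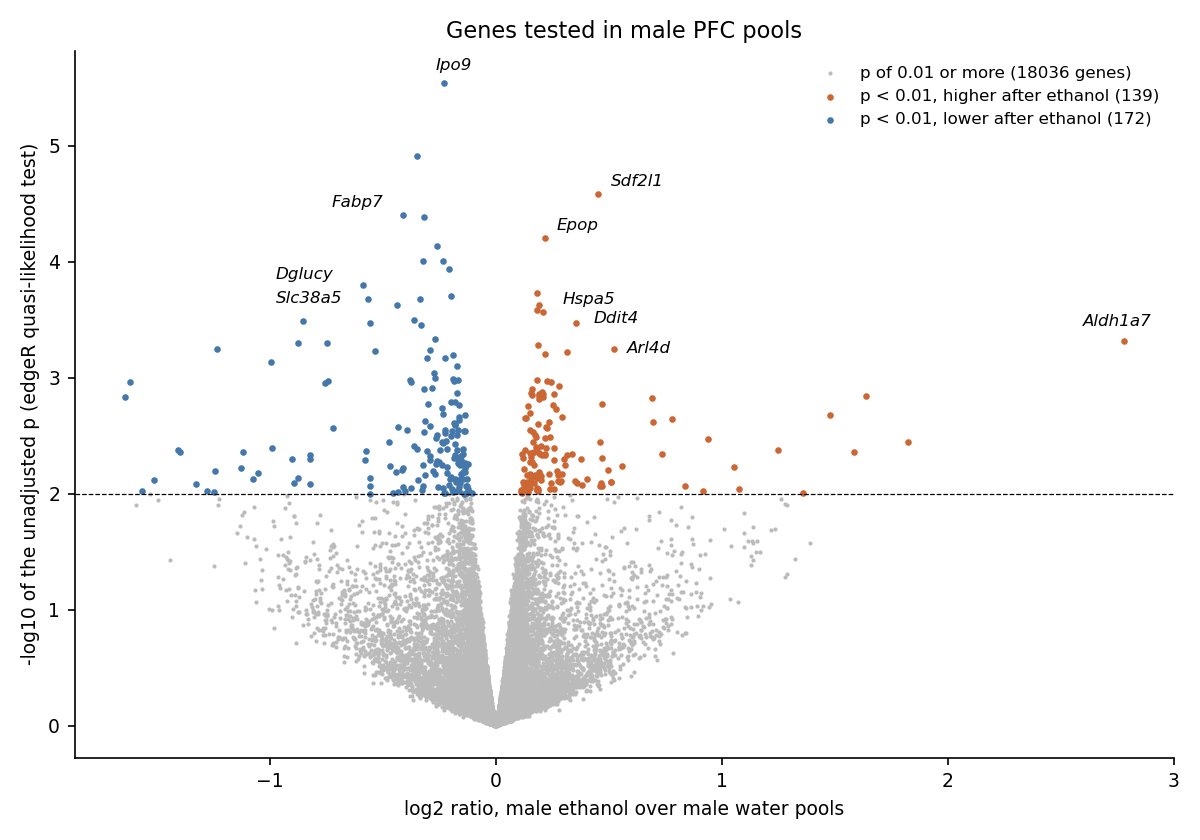
Each of the 18347 tested genes by its log2 ratio of male ethanol over male water pools (horizontal axis) and the -log10 of its unadjusted p (vertical axis). The dashed line marks an unadjusted p of 0.01, and 139 genes above it were higher after ethanol (orange) and 172 lower (blue), with *Ipo9* at the top and *Aldh1a7* farthest right.

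Chaperones of the ER were among the genes that rose, by small amounts. Of 27 measured genes of the heat shock and unfolded protein response, 6 rose and 0 fell, against 0.758% and 0.937% of all genes. The log2 ratio was above 0 for 24 of the 27, and the list's median was 0.11, where the median of all tested genes was near 0 (-0.0024). Its members summed to 4177 to 4427 CPM in water pools and to 4476 to 4736 CPM in ethanol pools, so that the groups did not overlap.

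The DEGs of the list were *Sdf2l1*, *Hspa5*, *Manf*, *Pdia6*, *Hspa8* and *Calr*. In RefSeq promoters (GRCm38.p6, the 250 bases before the start), 6 of the 22 list members with a window held the ER stress response element, searched as CCAAT and CCACG with 9 bases between them on either strand: *Calr*, *Canx*, *Creld2*, *Hsp90b1*, *Hspa5* and *Pdia6*. The same letters were found in 18 of 12552 tested genes with a window (0.143%) and in 0.113% of all 32851 windows. The windows of the 3 DEGs among the 6 are shown because they put the element beside genes that rose, with its letters in capitals. They lie at chr2:34771840-34772089 (plus strand) for *Hspa5*, at chr12:17266339-17266588 (plus strand) for *Pdia6* and at chr8:84846932-84847181 (minus strand) for *Calr*, where the capitals read the element on the opposite strand.
Hspa5: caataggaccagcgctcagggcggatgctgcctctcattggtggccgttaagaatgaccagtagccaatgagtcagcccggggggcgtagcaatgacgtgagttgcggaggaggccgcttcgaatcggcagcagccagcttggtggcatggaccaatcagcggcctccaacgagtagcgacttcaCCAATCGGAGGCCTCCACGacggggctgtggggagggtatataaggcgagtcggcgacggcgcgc
Pdia6: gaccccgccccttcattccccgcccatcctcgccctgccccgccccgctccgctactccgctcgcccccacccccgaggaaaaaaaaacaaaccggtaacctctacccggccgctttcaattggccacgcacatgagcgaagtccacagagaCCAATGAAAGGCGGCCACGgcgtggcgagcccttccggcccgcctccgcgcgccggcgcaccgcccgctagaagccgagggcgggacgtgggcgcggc
Calr: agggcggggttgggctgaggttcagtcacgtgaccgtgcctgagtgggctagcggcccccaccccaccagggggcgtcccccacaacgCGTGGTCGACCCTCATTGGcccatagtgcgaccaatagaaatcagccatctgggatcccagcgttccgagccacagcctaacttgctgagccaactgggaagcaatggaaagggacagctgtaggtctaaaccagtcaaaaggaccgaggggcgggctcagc
A match describes the letters in the window and does not show that a factor was bound. *Canx*, which holds the same element, had a log2 ratio of -0.02 (SE 0.04).

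*Sdf2l1* (ENSMUSG00000022769, chr16:17130138-17132383, minus strand), an ER protein that works with chaperones, was the most significant gene among those that rose. It stood at 7.24, 8.55, 7.66, 8.57 and 8.84 CPM in the water pools and at 10.4 to 12.6 CPM, median 11, in the ethanol pools. Every ethanol pool lay above every water pool. The means were 8.17 ± 0.686 and 11.2 ± 0.770 CPM (SD, n = 5 and 6), a log2 ratio of 0.46 (SE 0.09, adjusted p = 0.153 by edgeR).

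*Hspa5* (chr2:34771970-34777547, plus strand) encodes BiP, the main ER chaperone and the sensor that holds the stress receptors silent. Its water pools held 200.4 to 241 CPM and its ethanol pools 238 to 264 CPM, median 247. The highest water pool lay within the ethanol range, and all 6 ethanol pools were above the water mean. The log2 ratio was 0.19 (SE 0.04, adjusted p = 0.265 by edgeR). *Sdf2l1* and *Hspa5* were called in all 11 fits that left out 1 pool.

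*Manf*, a secreted ER protein that protects neurons, stood at 36.6, 38.3, 35.4, 33.4 and 38.6 CPM after water and at 35.6 to 44.6 CPM, median 43.7, after ethanol. The lowest ethanol pool fell inside the water range and the other 5 lay above the water mean (log2 ratio 0.21, SE 0.06, adjusted p = 0.398). *Pdia6*, a disulfide isomerase, had a log2 ratio of 0.15 (SE 0.04, adjusted p = 0.466). The cytosolic chaperone *Hspa8* averaged 628 ± 24.0 CPM after water and 681 ± 22.2 CPM after ethanol, and *Calr*, a calcium-binding chaperone, 326 ± 14.1 and 353 ± 14.1 CPM. Their log2 ratios were 0.12 (SE 0.04, adjusted p = 0.526) and 0.11 (SE 0.04, adjusted p = 0.589), and all 6 members named here but *Calr* were called in 8 or more of the 11 fits that left out 1 pool. *Pdia6* lost its call without water pool 3 (ratio 0.13), *Hspa8* without water pool 4 or 5 or ethanol pool 5 (unadjusted p up to 0.017), and *Calr* without any 1 of water pools 1 to 4 or ethanol pools 4 to 6 (unadjusted p up to 0.0311).

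Other members gave values that did not pass. The inducible heat shock gene *Hspa1b* had a log2 ratio of 0.37 (SE 0.14), the stress factor *Xbp1* 0.11 (SE 0.05) and the ER chaperone *Hsp90b1* 0.07 (SE 0.04). *Atf4* and *Ddit3*, factors of the branch that halts translation, stood at 0.01 (SE 0.05) and 0.11 (SE 0.10). Between 4 (without ethanol pool 5) and 8 members passed when 1 pool was left out, 4 with library size as a covariate and 5 without ethanol pools 2, 3 and 6.

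**Figure D2:**
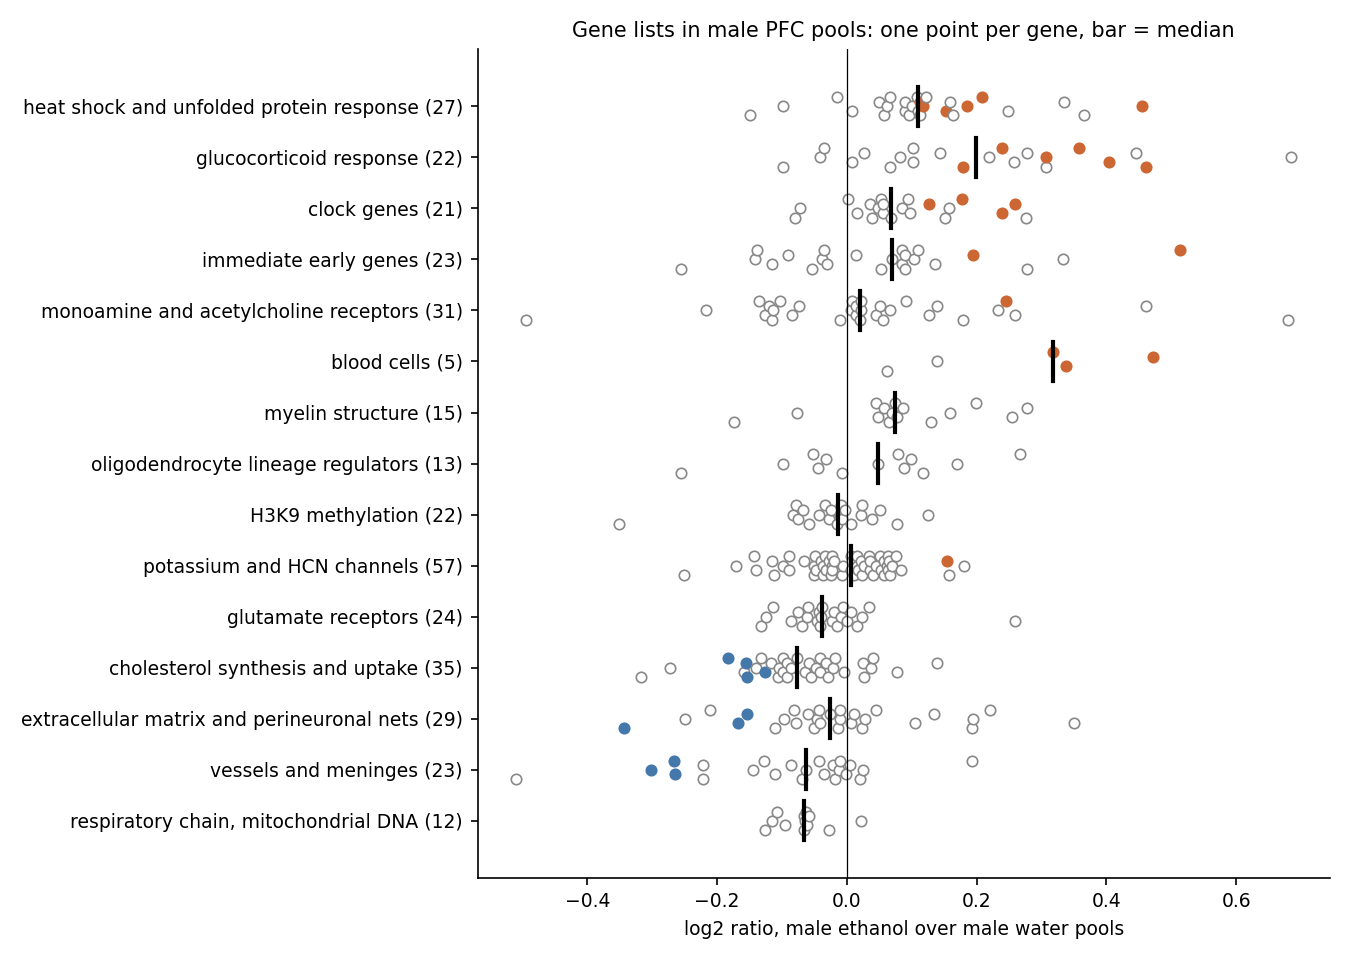
Each point is 1 tested gene of a named list by its log2 ratio of male ethanol over male water pools, filled where p was below 0.01 (orange higher, blue lower), with the list's size in parentheses and its median as a bar. The 27 heat shock and unfolded protein response genes center at 0.11 with 6 filled points, and the 35 cholesterol genes at -0.08 with 4.

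Some genes that glucocorticoid hormone induces rose as well, with wider spread between pools. Of 22 measured members 6 rose and 0 fell, against 0.758% and 0.937% of all genes. Of the log2 ratios 19 of 22 were above 0 (8962 of 18347 over all genes), and the median was 0.20. The risers were *Ddit4*, *Klf9*, *Tsc22d3*, *Sult1a1*, *Hif3a* and *Per1*. As a list, relative to the water mean, the water pools ran from -0.12 to 0.20 and the ethanol pools from 0.04 (pool 3) to 0.35 (pool 2) in mean log2 CPM, so the groups overlapped.

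*Ddit4* (chr10:59949669-59951834, minus strand), an inhibitor of mTOR signaling, stood at 14.9 to 20.8 CPM, median 16.6, in water pools and at 19.1 to 25.6 CPM, median 20.7, in ethanol pools. It averaged 17.1 ± 2.24 and 21.9 ± 2.88 CPM (SD), a log2 ratio of 0.36 (SE 0.09, adjusted p = 0.27 by edgeR), and kept its call whichever pool was left out. *Tsc22d3*, the glucocorticoid-induced leucine zipper, had 29.8 to 47.4 CPM after water and 32.4 to 56.9 CPM, median 44.2, after ethanol. Its groups overlapped widely (log2 ratio 0.31, SE 0.10, adjusted p = 0.542), and its call was lost without any 1 of water pools 1 to 3 or ethanol pools 2 and 6 (unadjusted p up to 0.0265).

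*Klf9*, a transcription factor, averaged 118 ± 8.95 and 134 ± 12.8 CPM (0.18, SE 0.06, adjusted p = 0.526). *Sult1a1*, a sulfotransferase, and *Hif3a*, a hypoxia factor, had log2 ratios of 0.40 (SE 0.14, adjusted p = 0.582) and 0.46 (SE 0.16, adjusted p = 0.589). *Fkbp5*, the cochaperone that damps the glucocorticoid receptor, missed the threshold at 0.26 (SE 0.09), and so did *Plin4*, a lipid droplet protein, at 0.68 (SE 0.33). *Klf9* lost its call without any 1 of water pools 1, 3 and 4 or ethanol pools 2 and 6 (unadjusted p up to 0.0138), *Sult1a1* without any 1 of water pools 1 to 3 or ethanol pools 1, 2 and 5 (unadjusted p up to 0.0325), and *Hif3a* in all but 3 of the 11 fits (unadjusted p up to 0.0422). *Sgk1*, a kinase of the same response, gave 0.10 (SE 0.07).

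The number of risers in this list rested on few pools. It was 1 without water pool 3 and up to 9 without others, 2 with library size as a covariate and 2 without ethanol pools 2, 3 and 6. By DESeq2 3 of the 6, *Tsc22d3*, *Hif3a* and *Per1*, were not called (unadjusted p up to 0.066). The median ratio stayed between 0.16 and 0.24 when 1 pool was left out. The glucocorticoid receptor's element, searched as GNACA and TGTNC with 3 bases between them on either strand, was in 3 of 19 members with a window (*Map3k6*, *Mt1* and *Sgk1*), in 0 of the 6 that rose and in 0.335% of tested genes.

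*Per1* belongs to the clock genes too, a list in which 4 of 21 members rose and 0 fell, with 19 ratios above 0 and a median of 0.07. Of all genes 0.758% rose and 0.937% fell. The risers were *Per1* and *Cry1*, repressors at the core of the clock, *Bhlhe40*, a repressor that competes for the same E-box, and *Hlf*, an output factor. The core E-box, CACGTG, was in the windows of 5 of 18 members, *Bhlhe41*, *Ciart*, *Cry1*, *Per1* and *Tef*, and in 9.37% of tested genes. It is shown in capitals for the DEGs of the 5, *Per1* (chr11:69098699-69098948, plus strand) and *Cry1* (chr10:85185055-85185304, minus strand).
Per1: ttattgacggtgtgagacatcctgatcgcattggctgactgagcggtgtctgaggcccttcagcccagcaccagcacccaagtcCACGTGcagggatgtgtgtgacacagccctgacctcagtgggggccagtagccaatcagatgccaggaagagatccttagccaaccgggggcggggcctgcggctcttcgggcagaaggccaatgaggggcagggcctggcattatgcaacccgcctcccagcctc
Cry1: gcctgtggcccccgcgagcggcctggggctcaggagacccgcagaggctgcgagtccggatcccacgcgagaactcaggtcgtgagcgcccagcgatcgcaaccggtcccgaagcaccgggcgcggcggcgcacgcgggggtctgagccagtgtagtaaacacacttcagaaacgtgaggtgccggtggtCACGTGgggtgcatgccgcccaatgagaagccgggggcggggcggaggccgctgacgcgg
These 6 letters are common, so the matches say little about either gene.

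*Cry1* stood at 12.9, 10.7, 11.5, 11.4 and 10.2 CPM after water and at 12.3 to 15.03 CPM, median 13.6, after ethanol. A single water pool reached into the ethanol range (log2 ratio 0.26, SE 0.08, adjusted p = 0.526). *Per1* had 55.4 to 86.2 CPM after water and 75.0 to 98.7 CPM, median 81.6, after ethanol, with 3 water pools inside the ethanol range (0.24, SE 0.09, adjusted p = 0.589). *Bhlhe40* averaged 74.4 ± 5.74 and 84.1 ± 6.27 CPM (0.18, SE 0.05, adjusted p = 0.511), and *Hlf* 135 ± 4.42 and 147 ± 8.80 CPM (0.13, SE 0.04, adjusted p = 0.589). *Per2* and *Dbp* did not pass at 0.28 (SE 0.11) and 0.16 (SE 0.07).

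Without ethanol pool 6, 0 of the clock genes passed, and the same was true without ethanol pools 2, 3 and 6. With library size as a covariate 1 passed. *Cry1* also lost its call without water pool 2 or 5, *Bhlhe40* without water pool 1 or 3, *Per1* without water pool 1 or 3 or ethanol pool 2 or 5 (unadjusted p up to 0.0535), and *Hlf* in 7 of the 11 fits without 1 pool. By the study's methods all PFC was dissected in the same window of the light phase. The order of pools within that window was not given in the sources used here, and its part in the clock genes was not tested.

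Neuronal activity genes did not move together. Of 23 immediate early genes 2 rose and 0 fell, against 0.758% and 0.937% of all genes, with 14 ratios above 0. *Ier5* stood at 74.3, 80.1, 79.3, 73.4 and 76.7 CPM after water and at 81.8 to 94.5 CPM, median 86.9, after ethanol, and every ethanol pool was above every water pool (0.19, SE 0.05, adjusted p = 0.257). *Arc*, a synaptic plasticity gene, ranged from 38.4 to 107 CPM after water and from 54.9 to 147 CPM after ethanol (0.51, SE 0.18, adjusted p = 0.582), and lost its call without any 1 of water pools 1, 2, 3 and 5 or ethanol pools 1 and 6 (unadjusted p up to 0.0433) and by DESeq2 (unadjusted p of 0.0969). *Fos* had a ratio of -0.09 (SE 0.15). Without ethanol pools 2, 3 and 6 none of the 23 rose, 1 fell and the median turned from 0.07 to -0.05.

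**Figure D3:**
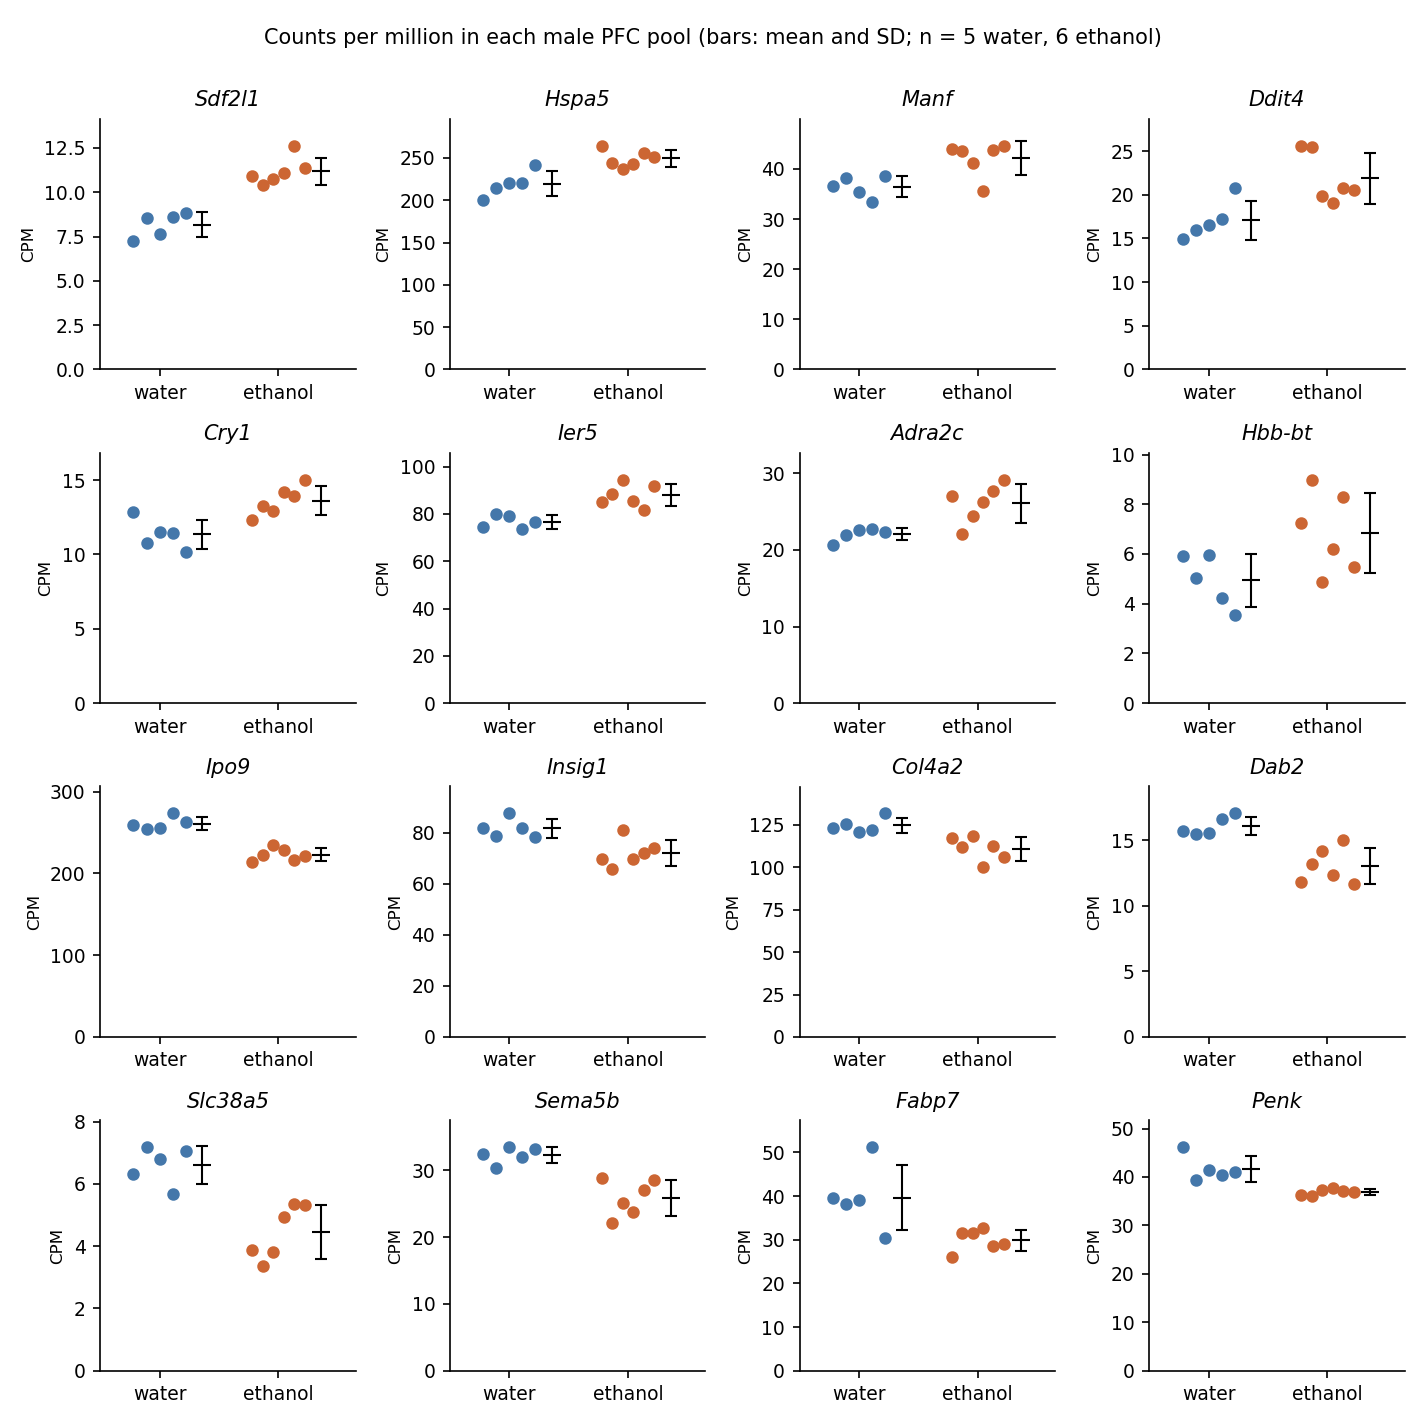
CPM in each male pool for 16 named genes, with the mean and SD of the 5 water and 6 ethanol pools and each vertical axis starting at 0. Ethanol pools lie wholly above water pools for *Sdf2l1* and *Ier5*, and wholly below for *Ipo9*, *Col4a2*, *Dab2*, *Slc38a5*, *Sema5b* and *Penk*.

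A few genes of cholesterol synthesis fell slightly after ethanol. Of 35 measured members 0 rose and 4 fell, against 0.758% and 0.937% of all genes. Of the ratios 29 were below 0 (9385 of 18347 over all genes), and the median was -0.08. Among those that fell were *Insig1*, the ER anchor that senses sterols, *Hmgcs1*, an early synthase of the pathway, and *Lss*, which closes the sterol rings.

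*Insig1* (chr5:28071363-28078662, plus strand) stood at 81.8, 78.9, 87.7, 82.0 and 78.5 CPM after water and at 65.7 to 81.0 CPM, median 70.9, after ethanol. The highest ethanol pool lay within the water range. The means were 81.7 ± 3.67 and 72.0 ± 5.20 CPM (log2 ratio -0.18, SE 0.05, adjusted p = 0.382 by edgeR), and the call was kept in all 11 fits without 1 pool.

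*Hmgcs1* averaged 297 ± 14.9 and 272 ± 16.6 CPM (-0.13, SE 0.04, adjusted p = 0.589) and *Lss* 56.0 ± 3.03 and 50.2 ± 3.22 CPM (-0.16, SE 0.05, adjusted p = 0.542). *Hmgcs1* lost its call without any 1 of water pools 1, 3, 4 and 5 or ethanol pools 1, 2, 5 and 6 (unadjusted p up to 0.0397), and *Lss* without any 1 of water pools 4 and 5 or ethanol pools 1, 4, 5 and 6 (unadjusted p up to 0.0244). *Msmo1* and *Sqle*, a demethylating oxidase and the squalene oxidase, gave -0.13 (SE 0.05) and -0.11 (SE 0.05). *Fdps*, which makes farnesyl diphosphate, gave -0.32 (SE 0.24).

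The sterol response element, searched as TCACNCCAC on either strand, was in the window of 1 of 26 members, *Hmgcs1*, and in 1.30% of tested genes. It is in capitals in the *Hmgcs1* window (chr13:119690101-119690350, plus strand), shown because this gene fell.
Hmgcs1: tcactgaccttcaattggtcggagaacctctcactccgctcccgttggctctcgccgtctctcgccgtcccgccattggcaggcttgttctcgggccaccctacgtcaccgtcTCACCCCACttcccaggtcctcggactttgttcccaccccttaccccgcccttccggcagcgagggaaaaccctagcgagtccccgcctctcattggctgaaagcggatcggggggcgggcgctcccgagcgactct
Between 1 member (without water pool 4 or ethanol pool 5) and 4 fell when 1 pool was left out, 2 with library size as a covariate and 3 without ethanol pools 2, 3 and 6. The median stayed between -0.08 and -0.06 over the fits without 1 pool.

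Some genes of blood vessels fell after ethanol. Of 23 measured markers of vessels and meninges 0 rose and 3 fell, against 0.758% and 0.937% of all genes. The list had 19 ratios below 0 and a median of -0.06. In bulk tissue fewer cells of a type and less RNA per cell cannot be told apart. *Dab2*, an endocytic adaptor, stood at 15.7, 15.5, 15.6, 16.6 and 17.1 CPM after water and at 11.7 to 15.02 CPM, median 12.8, after ethanol. No ethanol pool reached a water pool (-0.30, SE 0.08, adjusted p = 0.33). *Kdr*, the endothelial receptor for vascular growth factor, averaged 32.2 ± 1.98 and 26.7 ± 3.55 CPM (-0.27, SE 0.07, adjusted p = 0.382), and *Cldn5*, a tight junction protein of the blood-brain barrier, 74.4 ± 12.4 and 61.9 ± 9.09 CPM (-0.26, SE 0.09, adjusted p = 0.542). *Cldn5* lost its call without any 1 of water pools 1 and 3 or ethanol pools 2, 3 and 6 (unadjusted p up to 0.0432), and by DESeq2 (unadjusted p of 0.0542).

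The list's mean log2 CPM, set against the water mean, was -0.13 to -0.20 in 5 ethanol pools and 0.28 in ethanol pool 5, while water pools ran from -0.16 to 0.21. With library size as a covariate none of the 23 passed, at a median of -0.01. Without ethanol pools 2, 3 and 6 a single marker fell, and the median was 0.01.

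Another 3 genes were among the 12 most significant falls and stood outside the vessel list. *Slc38a5*, an amino acid transporter, stood at 5.68 to 7.19 CPM after water and at 3.36 to 5.37 CPM, median 4.41, after ethanol (-0.56, SE 0.13, adjusted p = 0.257). *Cd93*, an endothelial surface receptor, stood at 19.4 to 21.5 CPM and at 13.1 to 18.9 CPM, median 16.9 (-0.33, SE 0.08, adjusted p = 0.257). For both, no ethanol pool reached the water range. *Tfrc*, the transferrin receptor for iron uptake, stood at 175 to 205 CPM after water and 152 to 176 CPM after ethanol, overlapping only at the edge (-0.21, SE 0.05, adjusted p = 0.214).

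Among 29 extracellular matrix genes 0 rose and 3 fell, against 0.758% and 0.937% of all genes. Their median was -0.03 and turned to 0.014 without ethanol pools 2, 3 and 6. *Col4a2* (chr8:11312805-11449287), a basement membrane collagen, stood at 123.3, 125, 121, 122 and 132 CPM after water and at 99.97 to 118 CPM, median 112, after ethanol, without overlap (-0.17, SE 0.05, adjusted p = 0.382). Its partner *Col4a1* averaged 105 ± 2.80 and 93.9 ± 8.75 CPM (-0.15, SE 0.05, adjusted p = 0.572). *Tnc*, a glycoprotein of the immature matrix, averaged 7.09 ± 0.905 and 5.603 ± 0.793 CPM (-0.34, SE 0.12, adjusted p = 0.582), and kept its call only without water pool 3 or 5 or ethanol pool 4. *Col4a1* lost its call without any 1 of water pools 1, 2, 3 and 5 or ethanol pools 4 and 6 (unadjusted p up to 0.032). The number that fell was 1 without water pool 1, without ethanol pool 6 or with library size as a covariate, and 2 without ethanol pools 2, 3 and 6.

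Hemoglobin transcripts went the other way. Of 5 blood cell markers 3 rose, against 0.758% of all genes. These were *Hbb-bs*, *Hbb-bt* and *Hba-a1*, which encode the chains of hemoglobin. *Hbb-bs* stood at 65.3, 53.0, 68.8, 56.0 and 37.6 CPM after water and at 55.5 to 89.8 CPM, median 72.0, after ethanol (0.34, SE 0.11, adjusted p = 0.526). *Hbb-bt* and *Hba-a1* had ratios of 0.47 (SE 0.15, adjusted p = 0.532) and 0.32 (SE 0.10, adjusted p = 0.526), and *Alas2*, the heme enzyme of red cell precursors, 0.06 (SE 0.17). *Hbb-bs* and *Hbb-bt* are close copies of each other, so reads may be split between these 2. By DESeq2 *Hba-a1* and *Hbb-bs* were not called (unadjusted p up to 0.0494). The 5 markers summed to 80.4 to 144 CPM in water pools and 117 to 183 CPM in ethanol pools, the part of leftover blood in these values was not tested, and none of the 5 passed without water pool 5 or without ethanol pool 2. Each of the 3 also lost its call without another pool, *Hba-a1* and *Hbb-bs* without water pool 2 or ethanol pool 4, *Hba-a1* and *Hbb-bt* without ethanol pool 5, and *Hbb-bt* without water pool 4 or ethanol pool 1.

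**Figure D4:**
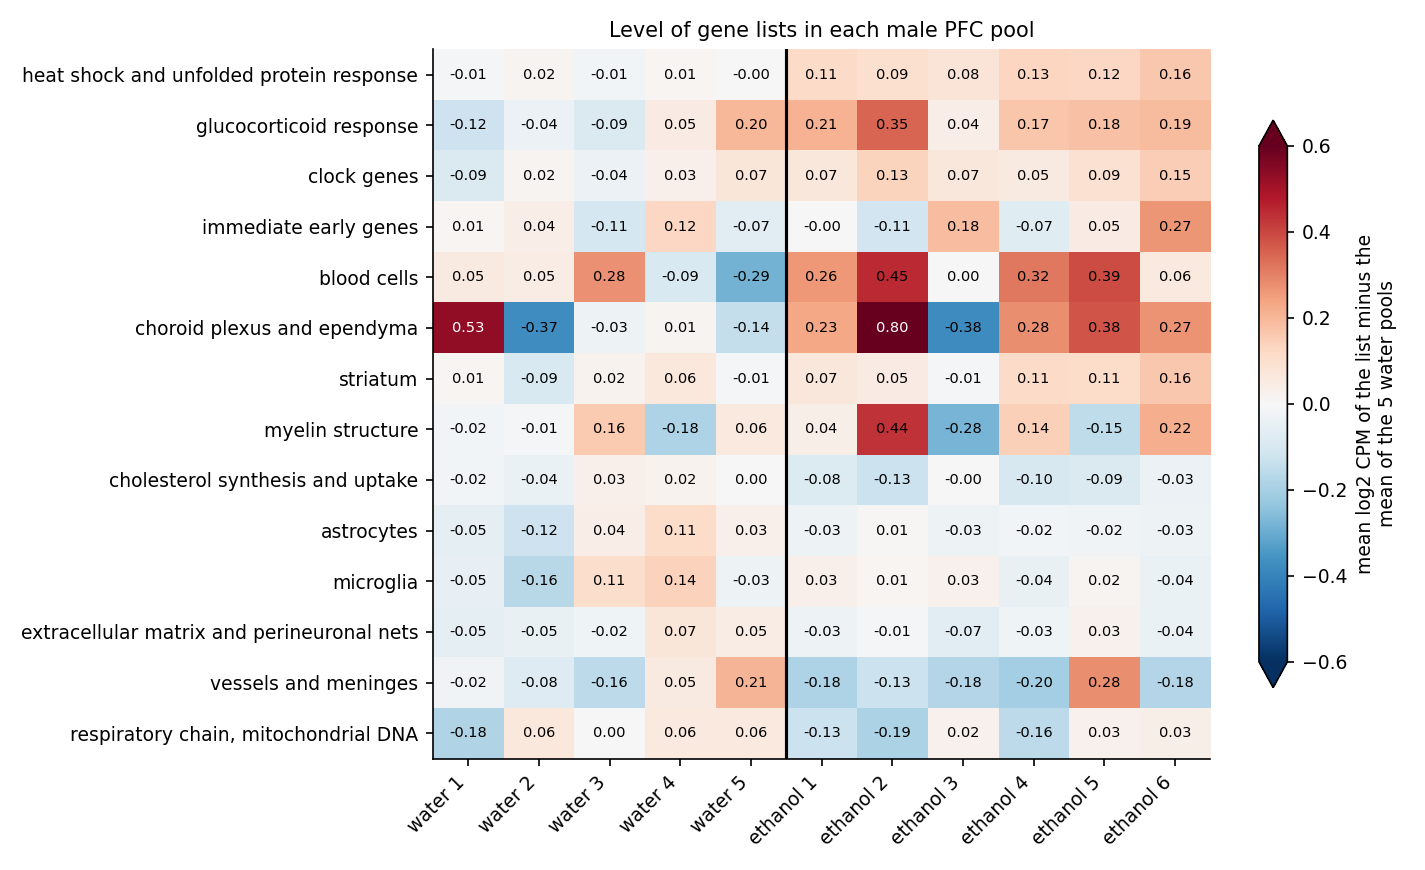
Mean log2 CPM of each named list (rows) in each male pool (columns), minus the mean of the 5 water pools. The heat shock and unfolded protein response list is at 0.08 to 0.16 in the 6 ethanol pools and at -0.01 to 0.02 in the water pools, while the vessel list is at 0.28 in ethanol pool 5 and negative in the other ethanol pools.

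Genes that handle ethanol and its aldehyde did not change together. Of 12 tested members 1 rose and 1 fell, against 0.758% and 0.937% of all genes. *Cat*, the peroxisomal catalase that oxidizes ethanol in brain, averaged 35.6 ± 2.65 CPM after water and 31.4 ± 1.39 CPM after ethanol, and all 6 ethanol pools were below the water mean (-0.18, SE 0.06, adjusted p = 0.526), a call lost without water pool 3 or 4 or ethanol pool 3 (unadjusted p up to 0.0228). *Aldh1a7* (chr19:20692953-20727562, minus strand), a close paralog of the retinaldehyde dehydrogenase *Aldh1a1*, stood at 0.380 to 1.18 CPM in water pools and at 0.742 to 25.9 CPM, median 1.14, in ethanol pools. The value of 25.9 was ethanol pool 6 alone, and the ratio fell from 2.78 (SE 0.70, adjusted p = 0.326) to 0.67 without it, where the unadjusted p was 0.0651. *Aldh1a1* had a ratio of 0.14 (SE 0.10).

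The most significant gene of all was *Ipo9* (chr1:135382312-135430499, minus strand), an importin that carries histones into the nucleus. It stood at 259.6, 254, 255, 273 and 263 CPM after water and at 214 to 235 CPM, median 222, after ethanol. The groups were far apart, at 261 ± 7.80 and 223 ± 7.85 CPM (SD), and the ratio was -0.23 (SE 0.04, adjusted p = 0.0529 by edgeR). Of 29 nuclear import and export genes it was the single one to fall, and 0 rose, against 0.937% and 0.758% of all genes.

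*Fabp7*, a fatty acid binding protein of astrocytes and precursor cells, stood at 39.5, 38.2, 39.1, 51.2 and 30.3 CPM after water and at 26.1 to 32.7 CPM, median 30.2, after ethanol (-0.41, SE 0.08, adjusted p = 0.153 by edgeR). Only water pool 5 came down to the ethanol range. *Sema5b*, an axon guidance protein, was at 30.3 to 33.5 CPM in water pools and 22.1 to 28.9 CPM, median 26.0, in ethanol pools, without overlap (-0.32, SE 0.07, adjusted p = 0.153). The orphan receptor *Gpr153* (-0.26, SE 0.06, adjusted p = 0.192) and the zinc finger gene *Zfp46* (-0.20, SE 0.05, adjusted p = 0.257) also had every ethanol pool below every water pool.

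The other leading falls were *Atp11b*, a lipid flippase (-0.23, SE 0.05, adjusted p = 0.203), *Pla2g4e*, a phospholipase that makes precursors of endocannabinoids (-0.32, SE 0.07, adjusted p = 0.203), *Dglucy*, a D-glutamate cyclase (-0.59, SE 0.13, adjusted p = 0.257), and *Abi3bp*, a matrix protein (-0.44, SE 0.10, adjusted p = 0.257). Ethanol pool 3 went against the fall of *Abi3bp*, at 26.5 CPM where the other 5 ethanol pools had 15.1 to 17.3 CPM.

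Among the leading rises, *Epop*, a subunit found with Polycomb complex 2, stood at 94.8 to 107 CPM after water and 114 to 129.8 CPM, median 118, after ethanol, without overlap (0.22, SE 0.05, adjusted p = 0.192). *Enc1*, an actin-binding protein of neurons, averaged 474 ± 25.4 and 538 ± 25.2 CPM, again without overlap (0.18, SE 0.04, adjusted p = 0.257). *Usf1*, a transcription factor that binds E-boxes, averaged 38.3 ± 1.42 and 43.7 ± 0.966 CPM, and its groups did not overlap either (0.19, SE 0.05, adjusted p = 0.326). *Nectin1*, a cell adhesion molecule, *Arl4d*, a small GTPase, *Zbtb40*, a zinc finger gene, and *Snw1*, a splicing and transcription cofactor, gave ratios of 0.21 (SE 0.05, adjusted p = 0.265), 0.53 (SE 0.14, adjusted p = 0.326), 0.32 (SE 0.08, adjusted p = 0.326) and 0.22 (SE 0.06, adjusted p = 0.326). Of these 24 leading genes, all but *Aldh1a7* were called in every fit that left out 1 pool. With library size as a covariate, *Aldh1a7*, *Arl4d*, *Enc1*, *Ier5* and *Snw1* lost their calls (unadjusted p up to 0.126 by edgeR). Without the 3 ethanol pools that lay farthest from the centre, *Aldh1a7*, *Arl4d*, *Cd93* and *Ier5* lost theirs (unadjusted p up to 0.665 by edgeR).

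Signaling genes of neurons moved little, and where 0.758% of all genes rose and 0.937% fell, a single call in a list says little. Of 31 receptors for monoamines and acetylcholine, 1 rose and 0 fell. *Adra2c*, an inhibitory adrenergic receptor, stood at 20.7, 22.0, 22.6, 22.8 and 22.3 CPM after water and at 22.1 to 29.2 CPM, median 26.7, after ethanol (0.25, SE 0.07, adjusted p = 0.382). The lowest ethanol pool lay within the water range, and the call was kept in all 11 fits without 1 pool. Its relative *Adra2a* had 0.23 (SE 0.10), the serotonin receptor *Htr7* 0.26 (SE 0.10), the muscarinic receptor *Chrm1* 0.14 (SE 0.05) and the dopamine receptor *Drd5* -0.49 (SE 0.19), none past the threshold.

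Of 40 tested neuropeptide genes 0 rose and 1 fell. *Penk*, the enkephalin precursor, stood at 46.2, 39.4, 41.4, 40.3 and 41.1 CPM after water and at 36.1 to 37.6 CPM, median 37.0, after ethanol, without overlap (-0.18, SE 0.05, adjusted p = 0.415). Without water pool 1 it gave -0.14 and was not called. *Penk* is also in the list of striatal markers, of which 7 of 11 had ratios above 0, with a median of 0.08.

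None of the 24 glutamate receptor genes or 12 GABA-A receptor subunits passed. The kainate subunit *Grik3* had -0.12 (SE 0.06), the AMPA subunit *Gria4* -0.09 (SE 0.04), and the GABA-A subunits *Gabrg3* and *Gabrd* -0.10 (SE 0.05) and 0.06 (SE 0.05). Of 57 potassium and HCN channel genes 1 rose, *Kcnip2*, a subunit of A-type channels (0.15, SE 0.05, adjusted p = 0.582). Of 40 synaptic adhesion genes 1 fell, the receptor phosphatase *Ptprf* (-0.13, SE 0.05, adjusted p = 0.589). *Kcnip2* lost its call without any 1 of water pools 1 to 3 or ethanol pools 1 to 3 (unadjusted p up to 0.033), and *Ptprf* kept it only without ethanol pool 3 or 6.

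The study asked whether adolescent binge ethanol alters myelin genes, and in male pools none of 15 myelin structure genes passed. The median ratio was 0.07, with 13 of 15 above 0, and it turned to -0.07 with library size as a covariate and to -0.0034 without ethanol pools 2, 3 and 6. *Mbp*, the myelin basic protein gene, averaged 1520.3 ± 151 CPM after water and 1604 ± 296 CPM after ethanol (0.08, SE 0.08). Ethanol pools held both extremes, with 1165 CPM in pool 3 and 1984 CPM in pool 2. *Mobp*, another myelin protein gene, averaged 329 ± 37.2 and 378 ± 94.9 CPM (0.20, SE 0.11).

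*Mag*, an adhesion protein of the inner myelin layer, gave 0.05 (SE 0.08), *Mal*, a raft protein, 0.07 (SE 0.10) and *Mog*, on the outer surface, 0.05 (SE 0.09). *Cldn11*, a tight junction protein of myelin, gave 0.16 (SE 0.09). Summed over the list, myelin transcripts spanned 2750 to 3399 CPM in water pools and 2330 to 4136 CPM in ethanol pools. Without ethanol pool 3, 3 of the 15 passed as higher, and without ethanol pools 2, 3 and 6 together 1 passed as lower. The median ran from 0.0091 to 0.14 when 1 pool was left out.

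None of 13 oligodendrocyte lineage regulators and none of 11 precursor markers passed. *Sox10*, the factor that drives myelin genes, gave 0.09 (SE 0.08), *Olig1* -0.04 (SE 0.05), and *Pdgfra*, the growth factor receptor of precursors, -0.06 (SE 0.05). Of 13 inhibitors of oligodendrocyte differentiation 1 rose, against 0.758% of all genes. It was *Hes1*, a Notch target (0.26, SE 0.09, adjusted p = 0.589), which kept the call only without water pool 3 or 5 or ethanol pool 4 or 5.

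Methylation of histone H3 at lysine 9 (H3K9) is a repressive mark, and none of 22 genes that write, erase or read it passed. *Ehmt1* and *Ehmt2*, which write its dimethyl form, averaged 39.5 ± 0.570 and 37.3 ± 1.27 CPM (-0.08, SE 0.05) and 243 ± 5.48 and 230.0 ± 10.3 CPM (-0.08, SE 0.04). For *Ehmt1* the groups nevertheless did not overlap, with ethanol below. The demethylases *Kdm4c* and *Kdm4d* gave -0.07 (SE 0.06) and -0.35 (SE 0.31), and the methyltransferase *Prdm2* 0.13 (SE 0.05). Of 22 genes tied to H3K36 methylation, 1 rose, against 0.758% of all genes. It was the chromatin reader *Morf4l1* (0.11, SE 0.04, adjusted p = 0.589), with the call kept only without ethanol pool 1, 2 or 3.

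Few markers of other cell types passed, and a single fall in a list says little where 0.937% of all genes fell. Of 14 astrocyte markers 1 fell, the water channel *Aqp4*, at 149 ± 11.1 and 133 ± 5.09 CPM (-0.16, SE 0.05, adjusted p = 0.415), and it gave -0.12 and was not called without water pool 4. The call of *Aqp4* was also lost with library size as a covariate and without ethanol pools 2, 3 and 6 together. None of 15 microglial markers, 17 markers of GABA neurons, 17 of cortical excitatory neurons or 35 innate immune genes passed. The 6 tested choroid plexus markers had a median of 0.23, which ran from 0.076 to 0.49 when 1 pool was left out, and none passed. Of these *Ttr*, the transthyretin gene, ranged from 0.999 to 16.8 CPM in water pools and from 1.91 to 16.7 CPM in ethanol pools (0.95, SE 0.40). The 12 respiratory chain genes of mitochondrial DNA had 11 ratios below 0 and a median of -0.07, and the 88 nuclear ones 63 above 0 and a median of 0.03, with none past the threshold in either.

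The second question of the design was whether exon use shifted within genes. In male pools few genes passed the main test, and a gene-level test of the same bins called more. Of 13032 genes with 224773 testable exon bins (stretches of exon with the same set of transcripts), 31 passed an unadjusted Simes p of 0.01 from edgeR (0.238%). By chance 130 would pass if these p-values were evenly spread. In simulated counts 0.672% of the unchanged genes passed, so 130 overstates the number due to chance. None passed an adjusted 0.05 by edgeR, 142 passed an unadjusted 0.05, and 885 single bins passed 0.01 (0.394%). A gene-level F-test in edgeR called 191 genes, 16 of them at the adjusted level, and limma's version 77 and 0.

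None of the 236 DEGs with testable bins was among the 31. Neither was any of 38 synaptic adhesion, 17 glutamate receptor, 54 potassium and HCN channel, 12 myelin or 41 splicing genes. Since 0.238% of all tested genes passed, sets of these sizes would hold few or none by chance. Their absence therefore says little about them. Among splicing regulators by whole-gene counts, 1 of 45 rose and 1 fell, against 0.758% and 0.937% of all genes. Both were core parts of the exon junction complex or their near copies. *Eif4a3*, the helicase of the complex, averaged 23.9 ± 0.789 and 27.4 ± 2.40 CPM (0.20, SE 0.06, adjusted p = 0.526). *Magohb* averaged 6.63 ± 0.258 and 5.31 ± 0.689 CPM (-0.32, SE 0.11, adjusted p = 0.589). *Magohb* shares its protein sequence with *Magoh* almost wholly and kept its call only without ethanol pool 3 or 5, and *Eif4a3* lost its call without water pool 3 or 5 or ethanol pool 2 or 5 (unadjusted p up to 0.0163).

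Of the 10 genes with the smallest p of exon use, the leading bin was used less after ethanol in 7 and more in 3. The annotation places 4 of these bins in non-coding transcripts, 3 in untranslated sequence and 2 in coding sequence. In *Ctsb*, a lysosomal protease, the bin at chr14:63135518-63135607 (plus strand, non-coding transcript) took 0.0945 to 0.197% of the gene's counts in water pools and 0.0174 to 0.0965% in ethanol pools. The groups met only through ethanol pool 5, and the counts behind each value were 3 to 38 (log2 change of use -1.37, adjusted p = 0.515 by edgeR). The 5 water pools were enough for this bin to meet the filter of 10 counts in 5 libraries. Its near separation is therefore not independent support.

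In *Uchl1*, a ubiquitin hydrolase abundant in neurons, the bin at chr5:66676448-66676845 took 1.98, 1.98, 1.96, 2.44 and 2.03% in water pools and 1.34 to 1.75% in ethanol pools, without overlap (-0.41, adjusted p = 0.571 by edgeR). In *Mrpl42*, of the mitochondrial ribosome, the bin at chr10:95490677-95493630 took 8.15 ± 0.762% and 5.24 ± 0.852%, without overlap (-0.64). A coding bin of the kinesin gene *Kif13a* took 1.51 ± 0.371% and 0.572 ± 0.209% (-1.39), and an untranslated bin of *Slc6a9*, the glycine transporter of glia, 1.34 ± 0.0894% and 0.572 ± 0.297% (-1.21). Both had every ethanol pool below every water pool, but on few counts (adjusted p = 0.999976 for each by edgeR). The *Kif13a* bin held 14 to 35 counts in water pools and 4 to 11 in ethanol pools. The *Slc6a9* bin held 19 to 27 and 3 to 15. In both, the 5 water pools alone met the filter of 10 counts in 5 libraries, so the separation is not independent support.

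More use after ethanol was seen in *Cnot1*, the scaffold of a deadenylase complex (0.578% and 1.04%, log2 change 0.86), in *Samd11* (12.5 ± 3.24% and 21.6 ± 4.41%, 0.78) and in *Synm*, an intermediate filament protein (0.586% and 1.47%, 1.35). Bins of *Bop1*, of ribosome assembly, and *Ammecr1l* were used less, at -1.41 and -0.66. The *Bop1* bin held 10 to 29 counts in water pools and 2 to 12 in ethanol pools, and its water pools alone met the count filter. For *Synm* the ethanol pools alone met it, at 7 to 25 counts against 4 to 10 in water pools. The *Ammecr1l* bin is 1 base long. Between 21 genes (without ethanol pool 5) and 42 (without ethanol pool 1) passed when 1 pool was left out.

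**Figure D5:**
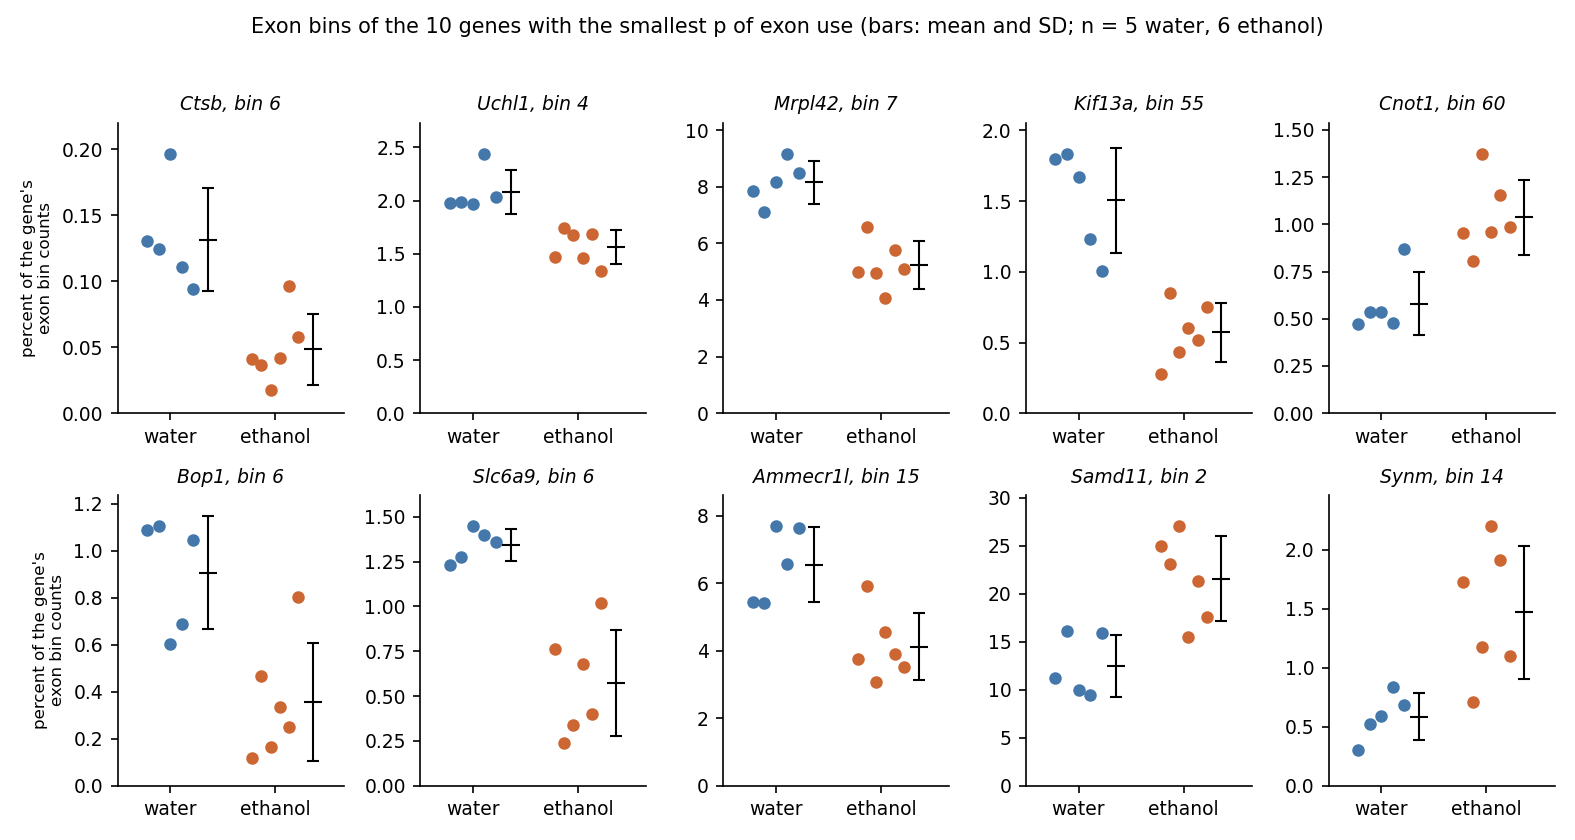
Percent of a gene's exon bin counts that fell in its leading bin, in each male pool, for the 10 genes with the smallest p of exon use, with the mean and SD of 5 water and 6 ethanol pools. The ethanol pools lie wholly below the water pools for *Uchl1*, *Mrpl42*, *Kif13a* and *Slc6a9*, and the groups overlap for the other 6.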

How the data were processed

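PolyA-selected, directional RNA-seq libraries of PFC pools were analysed. The deposited gene counts were made by the authors with featureCounts (Subread 2.0.2, exons summed by gene, reverse-stranded) against Ensembl genes of GRCm38. The counting command did not ask for pairs, and 73.4% of counts between 1 and 20 were even, so both mates of a pair were counted and p-values take each pair for 2 reads. The deposited exon bin counts were per read pair by their values, since the median ratio of bin to gene count was 0.501 over 324 genes of a single bin, and the sources used here name no tool for it. The submitters' processing notes also name FastQC, STAR 2.7.8a, GRCm38 and mm10, without roles.

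Samples were grouped by their labels. Genes were filtered with edgeR 4.0.16 (filterByExpr, minimum count 10; R 4.3.3), scaled by TMM and tested with the quasi-likelihood F-test over the 11 male pools, without covariates. Adjusted p-values are Benjamini-Hochberg values over all genes tested. DEGs passed an unadjusted p of 0.01, the level used in the study. CPM are reads scaled by TMM to a library of 1000000. Summed CPM of a list cover all its members in the counts and are scaled by the total reads on genes, without TMM. List levels are means over the tested members of log2 CPM, with a small constant added to each CPM before the log. The principal components and the correlations between pools used log2 CPM with a prior count of 2. Exon use was tested with diffSpliceDGE over bins with at least 10 counts in 5 libraries, with Simes p-values per gene, and 915 of the identifiers tested join several overlapping genes.

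Depth was 30546493 to 46519801 reads on genes. In simulated counts with known changes, 59% of genes changed by 0.5 on the log2 scale and 82.8% of those changed by 1 were recovered at an adjusted p of 0.05 (edgeR, 18252 genes). For exon use it was 31 and 95% (12999 genes). Changes smaller than 0.5, such as the median DEG size of 0.23 on the log2 scale, were not simulated, so these shares do not describe them. The changed bins were all above the median abundance and in genes of several bins, so the exon shares do not describe bins of low counts. Pools of the same group differed by more than counting noise, with a chi-square per degree of freedom of 3.38 to 6.69 over 25 pairs, so none was a repeat of another.

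The members and gene lists were chosen with earlier results of these data known. Named genes were the 12 with the smallest p in each direction (1 predicted gene or pseudogene passed over), list members past 0.01, up to 2 leading members of other lists, the oligodendrocyte, myelin and H3K9 genes measured by qPCR in the study, and the 10 leading genes of exon use. Further list members that are given with a p of 0.01 or more were chosen after their values were seen. A few of the genes taken in this way are not reported here. Alternatives were DESeq2 1.42.0, limma-voom (limma 3.58.1), a likelihood ratio test, other scalings and filters, library size as a covariate, the replicate number as a block, halved counts and leaving out each pool. Leaving out ethanol pools 2, 3 and 6 together was chosen after seeing the data. Female pools were not used. Promoter windows are from RefSeq (GRCm38.p6) and were matched by symbol for 12552 of the tested genes.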

Additional observations from a re-analysis of the deposited data

Results flagged for a closer look

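A pool was set apart where its gap to the nearest pool of its group was large against the group's range. This was looked at in 304 groups of 5 or 6 pools, 15 were set apart, and chance sets apart about 1 in 20, or 15.2.

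In ethanol pool 6, *Aldh1a7* was at 25.9 CPM where the other ethanol pools had 0.742 to 2.23, the alcohol and aldehyde metabolism list, which holds that gene, was at a mean log2 CPM of 5.14 (others 4.82 to 4.93), and *Nkx2-2*, a lineage factor of oligodendrocytes, was at 3.16 CPM (others 4.47 to 5.01). In ethanol pool 3, *Snw1* was at 38.1 CPM (others 43.1 to 45.3) and *Abi3bp* at 26.5 CPM (others 15.1 to 17.3), each against the direction in which the gene was called. In ethanol pool 2, *Hdac2*, a histone deacetylase, was at 61.9 CPM (others 52.9 to 54.5) and the splicing regulators were at a mean log2 CPM of 6.90 (others 6.82 to 6.85). *Tnc* was at 7.07 CPM in ethanol pool 4 (others 4.88 to 5.69). The vessel and meninges list was at 4.498 in ethanol pool 5 (others 4.02 to 4.09).

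Among water pools, *Ttr* was at 16.8 CPM in pool 1 (others 0.999 to 4.13), and the respiratory chain genes of mitochondrial DNA were at a mean log2 CPM of 8.66 there (others 8.85 to 8.91). The oligodendrocyte lineage regulators were at 4.43 in pool 3 (others 4.27 to 4.30). In pool 5, the GABA neuron markers were at a mean log2 CPM of 5.92 (others 6.01 to 6.05) and the *Cnot1* bin took 0.871% of the gene's counts (others 0.470 to 0.536%). The *Uchl1* bin took 2.44% in pool 4 (others 1.96 to 2.03%).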

How the results depend on the processing

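The number of DEGs, 311, was 612 with no filter on low counts (246 higher, 366 lower; 31930 genes tested) and 118 with library size as a covariate (54 higher, 64 lower). It ran from 223 to 381 when 1 pool was left out, with 98 to 177 higher and 112 to 204 lower, the lowest without water pool 4. The share of DEGs that were higher was 44.7%, 48.8% with RLE size factors, 50.7% with halved counts, and 37.4 to 52.9% when 1 pool was left out. At an adjusted p of 0.05, 0 genes passed in edgeR, 21 in DESeq2, 1 in limma-voom, 18 in edgeR's likelihood ratio test, 67 with no filter, 1 with the filter at 1 CPM, 2 without ethanol pools 2, 3 and 6, and 0 to 2 when 1 pool was left out. The cause of these differences was not tested, beyond the larger number of genes tested with no filter. The number of genes with altered exon use, 31, was 191 by the gene-level F-test, 77 by limma, 63 with bins of at least 1 count and 9 with bins of at least 50 counts (fewer genes tested), and 21 to 42 when 1 pool was left out. The depth difference of -5499040 reads ran from -6840560 to -3564970 when 1 pool was left out. Replicate numbers are shared by the groups' labels, which do not say whether a number marks a shared batch. Deviations of same-numbered pools had correlations of -0.0029 to 0.065 over 5 pairs. Of 5 water pools, 2 were closest to their own number. So few pairs cannot settle whether the number is a pairing, and it was not used as one in the main test. With the replicate block 247 DEGs were called, 182 of them among the 311, and 32 genes of exon use. Of 61 DEGs taken by the naming rule, 29 were called in all 11 fits without 1 pool, 31 with library size as a covariate and 45 under the block, and 0 turned their direction. DESeq2 ended 7 of these calls (*Arc*, *Per1*, *Hif3a*, *Tsc22d3*, *Cldn5*, *Hba-a1* and *Hbb-bs*). Limma-voom ended that of *Aldh1a7*, and other scalings, filters or the likelihood ratio test those of *Calr*, *Hmgcs1*, *Magohb*, *Morf4l1*, *Per1* and *Ptprf*, at unadjusted p-values up to 0.0142. The simulated counts kept the real library sizes, so what depth limits was not measured there. With halved counts 292 DEGs were called, 273 of them among the 311.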
